A study of Mus musculus with 12 samples.

Results

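The comparison was between P19 cells after 6 days of neuronal differentiation (D6) and P19 cells before differentiation (D0), with 3 replicates on each day. These 6 libraries are part of a series of 12 that also sampled 2 days in between. P19 is a line of mouse embryonal carcinoma cells, the stem cells of a teratocarcinoma, and the cells carried no genetic change beyond those of the line. D0 cells grew in DMEM with serum. D6 cells had been on poly-L-lysine in the neural medium NDiff with 500 nM retinoic acid, renewed daily, for 6 days. Day, medium and retinoic acid therefore changed together and cannot be told apart. All libraries were made from poly(A)-selected RNA by direct RNA nanopore sequencing, in which the native RNA molecule is read from its 3′ end, so that 1 read can span several exons of a single transcript.

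Members were the reads of the 6 libraries that passed the poly(A) quality tag of the per-read table, carried its mRNA class and did not belong to a pseudogene family, without mitochondrial genes and without genes of the large and small ribosomal subunits (Rpl and Rps). This left 1888988 reads of the 3065059 in all 12 libraries, with 315194, 423964 and 360139 in D0 replicates 1 to 3 and 202264, 330322 and 257105 in D6 replicates 1 to 3. Reads with a mapping quality of 0, which fit more than 1 transcript equally well, made up 17.4% to 25.6% of a library. The share of reads that reached the first 100 bases of their transcript ranged from 21.2% to 31.8% at D0 and from 25.5% to 37.0% at D6. Each sequencing run held 1 day, 3 runs for D0 and 4 for D6, which leaves no run in which the 2 days meet. In the run names D0 is also marked D2 and 2 of the 4 D6 runs are without a day. Sample labels, not run names, set the groups. Scatter between libraries of the same day was 1.17 to 1.45 times what counting of reads gives (chi-square over its degrees of freedom) and between days 9.62 to 11.5 times.

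Retinoic acid enters the nucleus with the help of small carrier proteins, binds receptors that sit on DNA, and is known to switch on the Hox genes and the enzymes of its own breakdown. In the neural lineage, cells that leave the pluripotent state pass through a progenitor stage under SoxB and Hes factors, then proneural factors such as the neurogenins start neuronal genes. Many genes also change the exons they use on this path, and neuronal forms of cytoskeletal and vesicle proteins often differ from those of dividing cells by a short exon or by the last exon.

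The junctions that set apart the transcripts of 4 genes are printed first, because they show exons whose share of reads changed. These 4 had the lowest adjusted p among the called genes of a list of known isoform switches in neurons. Reads were assigned to transcripts by the whole alignment, and the transcript pairs of Clta and Pkm also differ at their ends. Each run is 30 bases of the transcript around an exon border, 5′ to 3′ in the sense of the gene, taken from the GRCm38 (mm10) reference transcripts, and capitals mark bases of the exon that the other transcript lacks. Myl6, an essential light chain of non-muscle and smooth muscle myosin, has a 45-nt cassette exon at chr10:128491720-128491764 on the minus strand, the sixth of 7 exons in the transcript that holds it.
Myl6 with the exon, upstream border: gcatcaactatgaagCATTTGTGAGGCATA
Myl6 with the exon, downstream border: GGGCCCATGGGGCGGagcttgtccggatgg
Myl6 without the exon: gcatcaactatgaagagcttgtccggatgg
Clta, a light chain of the clathrin coat of vesicles, has a 54-nt coding exon at chr4:44030215-44030268 on the plus strand.
Clta with the exon, upstream border: aaaggcaaacaacagGGTGGCAGACGAAGC
Clta with the exon, downstream border: CCTGATTGGTTATGTggcagcagaagaagc
Clta without the exon: aaaggcaaacaacagggcagcagaagaagc
Pkm, the pyruvate kinase that ends glycolysis, uses either of 2 exons of 167 nt on the plus strand, at chr9:59675029-59675195 (M1 form, known from adult muscle and brain) or chr9:59675568-59675734 (M2 form, known from embryonic and dividing cells).
Pkm M1, upstream border: cgcatgcagcacctgATAGCTCGGGAGGCT
Pkm M2, upstream border: cgcatgcagcacctgATTGCCCGAGAGGCA
Pkm M1, downstream border: CACGGAGTCTGGCAGgagtgctcaccaagt
Pkm M2, downstream border: CACCAAGTCTGGCAGgagtgctcaccaagt
Cdc42, a small GTPase of the actin cytoskeleton, ends in either of 2 last exons on the minus strand, the proximal at chr4:137321762-137322619 or the distal at chr4:137319696-137321192, which encode different C-termini.
Cdc42 with the proximal last exon: tctgccctcacacagAGAGGTCTGAAGAAT
Cdc42 with the distal last exon: tctgccctcacacagAAAGGCCTAAAGAAT

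Across the transcriptome D6 differed widely from D0. Of 9210 genes with at least 30 reads over the 12 libraries, 3427 (37.2%) passed an adjusted p of 0.05 in limma-voom, 1810 (19.7%) higher and 1617 (17.6%) lower at D6, and the median log2 fold change over all genes was 0.03. The libraries of the 2 days did not overlap for 4251 genes (46.2%). These shares are the background against which the counts below are given. A gene with few reads on 1 day could pass the 30-read filter through its other days, which in part fixes the direction of its call and the counts of lists with many such genes. Under 30 reads in all at D0 were held by 24 of 27 tested Hox genes, 20 of 25 proneural factors, 17 of 20 synaptic genes 10 of 13 genes of the retinoic acid pathway, 16 of 28 neural progenitor factors, 16 of 37 cytoskeletal genes, 10 of 20 neuronal RNA-binding proteins and 3 of 4 neural crest markers. Under 30 reads at D6 were held by 13 of 16 pluripotency genes, 15 of 29 glycolysis genes, 14 of 22 matrix genes, 7 of 8 epithelial genes and 9 of 16 genes of Nodal, FGF and Wnt signalling. Levels are in CPM, reads per 1000000 of a library after scaling by the trimmed mean, and a fold change is on the log2 scale of reads plus 0.5. Where a day had no read, the fold is given as a bound from 3 reads per library, and where it had 1 to 3 reads in all, as the ratio of pooled CPM with its 95% counting interval. In bulk RNA, fewer cells of a type and less RNA per cell cannot be told apart, and the p-values measure the spread between these libraries.

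**Figure D1:**
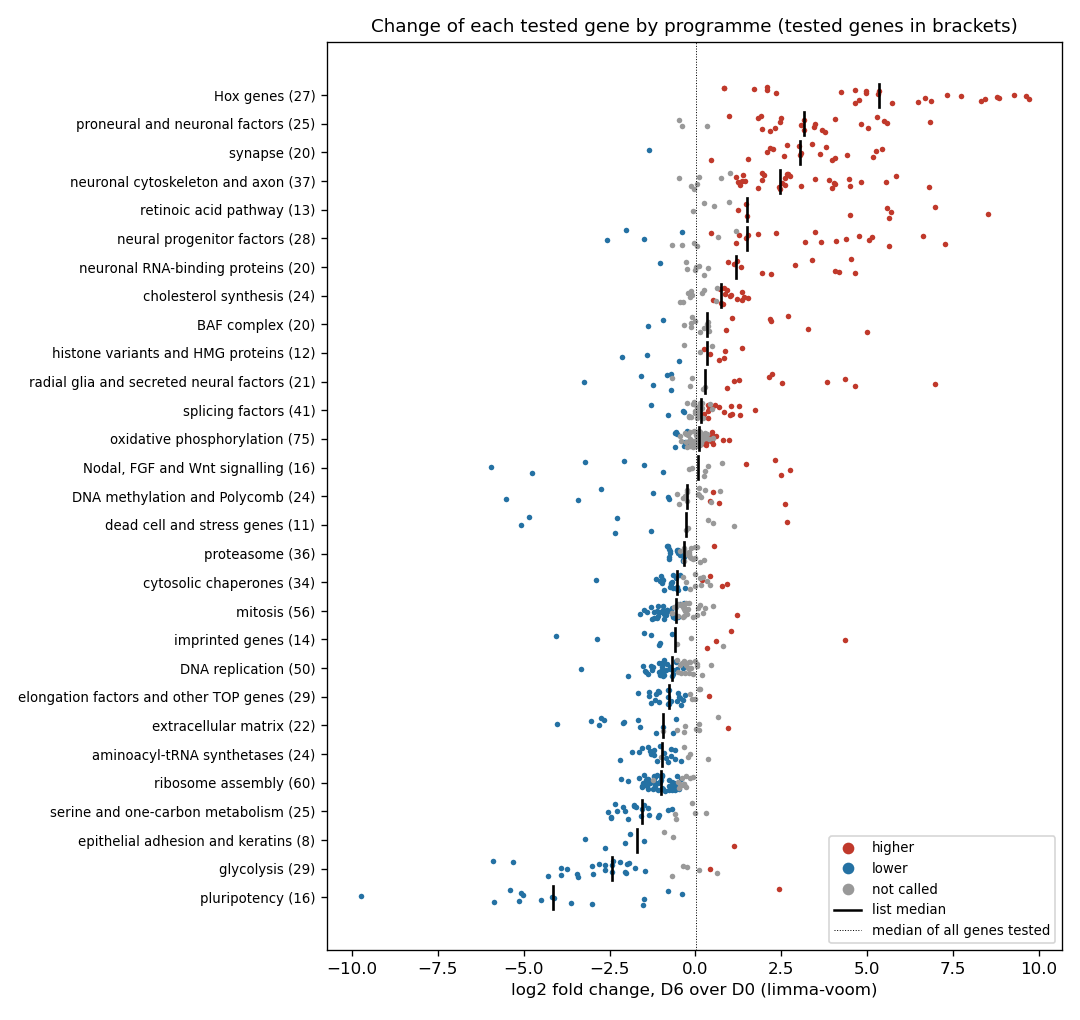
Log2 fold change of D6 over D0 (horizontal axis) for each tested gene of the gene lists with at least 8 tested genes (vertical axis, tested genes in brackets); points are genes, coloured by the limma-voom call, the short black lines are list medians and the dotted line is the median of all genes, 0.03. The Hox list has all its 27 points to the right, and 15 of the 16 pluripotency genes and 23 of the 29 glycolysis genes are called lower.

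The labels were checked against the defining markers. Of 8 markers of pluripotent cells, 6 were lower at D6, Nanog had 5, 10 and 2 reads at D0 and 0 at D6 and was not tested, and Zfp42 had no read on either day. Of 12 neuronal markers, 11 were higher at D6, while Rbfox3, a marker of mature neurons, had 0, 2 and 1 reads at D6 and none at D0. All 5 neural progenitor markers (Pax6, Sox1, Nes, Vim and Fabp7) were higher at D6, so both progenitor and neuronal genes were read in the same libraries. Some neuronal genes were already read at D0, for example Stmn2, a microtubule regulator of growth cones, with 127, 173 and 161 reads.

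The pluripotency programme was low at D6. Among the 16 tested genes of a list of 40, 15 were lower and 1 was higher. The median log2 fold change was -4.14 (-2.64 with bounds in place of fitted values where a day had no read), and the list took 0.471% ± 0.0181 of reads at D0 and 0.0853% ± 0.00369 at D6 (SD, n = 3). Pou5f1, the Oct4 factor that holds cells in the pluripotent state, had 664, 1027 and 782 reads at D0 and 0, 0 and 1 at D6. Its only D6 read was in replicate 3, and pooled CPM was 1918 (344 to 75779) times higher at D0. L1td1, an RNA-binding protein of pluripotent cells, had 37, 46 and 32 reads at D0 and no read in any D6 library, at least 9.44-fold lower at D6. Sall4, a zinc finger factor of the same network, had 43, 84 and 63 reads at D0 and 1 in each D6 library. Lin28a, which blocks maturation of let-7 microRNAs, fell from 229.7 ± 17.2 to 8.15 ± 3.39 CPM (SD, n = 3), a log2 fold change of -4.50 ± 0.49 (SE).

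Other members of the list moved less or the other way. Sox2, which serves both pluripotent and neural stem cells, had 116, 134 and 127 reads at D0 and 55, 105 and 64 at D6, which in CPM was a change from 367 ± 17.8 to 277 ± 32.2 CPM. The days did not overlap in CPM, and the log2 fold change was -0.39 ± 0.15 (limma-voom adjusted p = 0.0272), a call that was lost when any of 3 libraries was left out (D0 replicate 1, D0 replicate 3 or D6 replicate 3) and when libraries were thinned to equal depth. Zfp57, which protects imprinted DNA methylation, was the 1 member that rose, with 7, 10 and 1 reads at D0 and 21, 24 and 17 at D6. Its partner Trim28, the corepressor Kap1, fell by 0.79 on the log2 scale (651 ± 33.4 to 371 ± 33.2 CPM). Gdf3, a Nodal-like ligand, fell by 3.63 and had 4, 7 and 8 reads left. Other genes among the 10 largest falls of all genes were Eras, a Ras protein of embryonic stem cells, Ifitm1, an interferon-induced membrane protein, and Fst, the activin inhibitor follistatin, each without a read at D6.

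Genes of DNA methylation and Polycomb repression were called at shares near those of all genes. Of 24 tested, 4 were higher (2 without D0 replicate 2) and 6 lower (0 at a mapping quality of at least 10), with a median of -0.24. Dnmt3b, a de novo DNA methyltransferase, had 76, 71 and 81 reads at D0 and 1, 2 and 0 at D6, 58.9 (19.9 to 288) times higher at D0. Cbx7, the Polycomb reader of pluripotent cells, had 16, 16 and 15 reads at D0 and 2, 0 and 1 at D6. Bmi1, a Polycomb ring finger protein, rose by 2.62 on the log2 scale. The core subunits Ezh2, Eed and Suz12 were tested and not called.

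Hox genes, which pattern the head-to-tail axis, and their Meis and Pbx cofactors were higher at D6 in all 27 tested genes of 36. Of these 27, 17 had no read at D0, so that the filter let them be called in this direction only. Their median log2 fold change was 5.34 (4.24 with bounds), and the list went from 0.0245% ± 0.0015 to 0.795% ± 0.0530 of reads. Hoxb5 had no read in any D0 library and 130, 233 and 173 reads at D6, at least 75.8-fold higher. Hoxa5 had no read in any D0 library and 94, 126 and 151 reads at D6, at least 53.8-fold higher, and Hoxc4 had no read in any D0 library and 50, 86 and 52 reads at D6, at least 26.6-fold higher. No D0 library held a read of these 3 genes, which lie in 3 different Hox clusters. The called genes ran from paralogue group 1 (Hoxd1) to group 9 (Hoxb9). The cofactor Meis2 rose by 4.64 on the log2 scale.

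The retinoic acid pathway followed the same direction at several steps. Of 13 tested genes, 9 were higher and none lower, with a median of 1.51. Crabp1 and Crabp2 carry retinoic acid itself. Crabp1 had 2, 7 and 3 reads at D0 and 142, 196 and 140 at D6 and a log2 fold change of 5.62 ± 0.43. Crabp2 had 24, 47 and 32 reads at D0 and 57, 91 and 77 at D6 and rose by 1.51, from a level that was already 98.1 CPM at D0. The days did not overlap for either carrier.

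Among the enzymes of retinoid breakdown, Cyp26a1 had 2, 4 and 7 reads at D0 and 68, 77 and 91 at D6 and rose by 4.51 on the log2 scale. Cyp26b1 had no read in any D0 library and 99, 149 and 192 reads at D6, at least 63.3-fold higher. Dhrs3, which turns retinaldehyde back to retinol, had 0, 1 and 1 reads at D0 and was 80.6 (21.8 to 673) times higher in pooled CPM at D6. Of the receptors, Rara, Rarb and Rxra were higher and Rxrb was not called. Rarb, a receptor gene that is itself a known retinoic acid target, had 0, 2 and 0 reads at D0 and 23, 36 and 35 at D6. Nr2f1, an orphan nuclear receptor of neural progenitors, was outside the list and among the 10 largest rises, with no read in any D0 library and 68, 89 and 77 reads at D6, at least 34-fold higher.

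**Figure D2:**
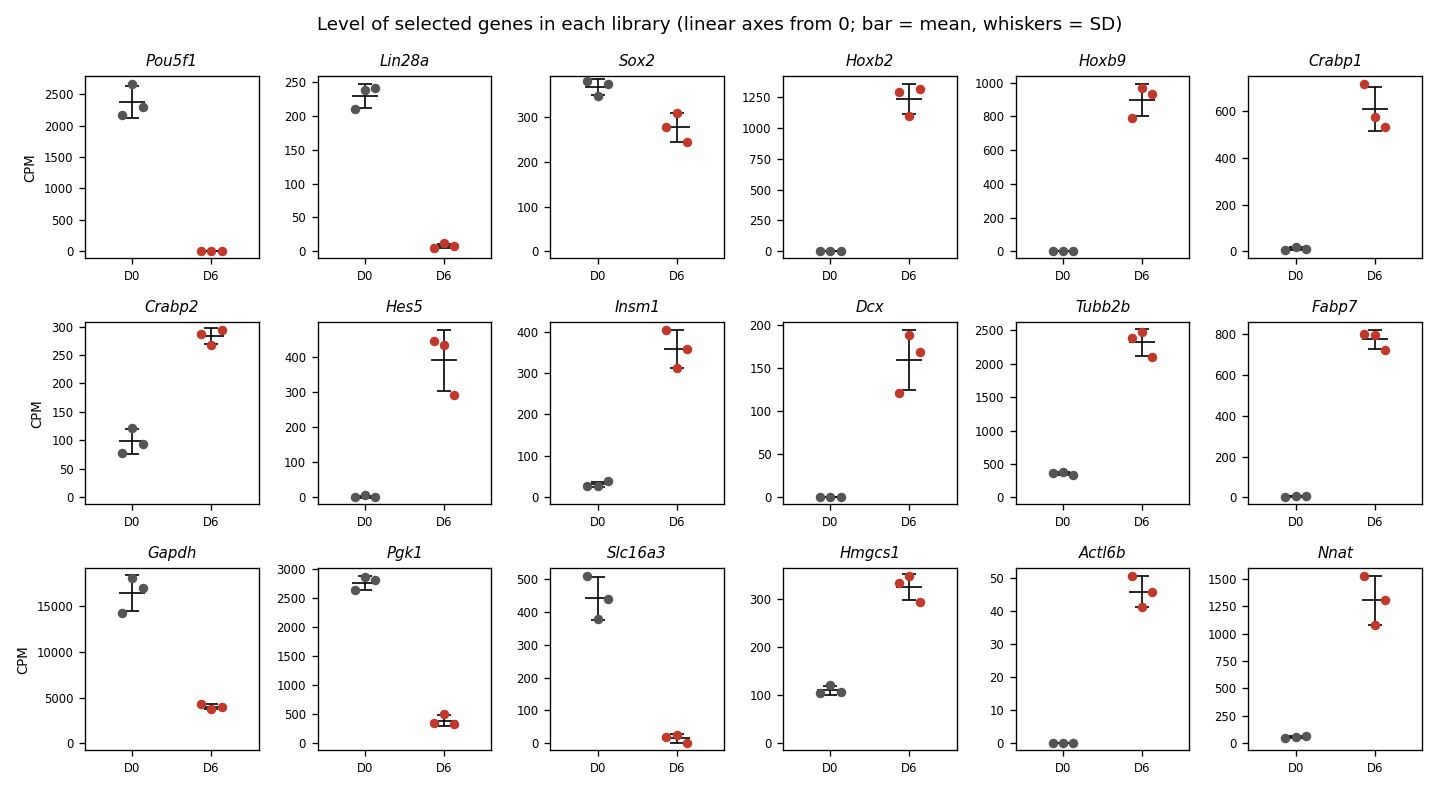
CPM (vertical axes, linear) of 18 genes in the 3 libraries of D0 (grey) and of D6 (red); points are libraries, bars the means and whiskers the SD. The days do not overlap in any of the 18 panels, and for Sox2 the lowest D0 library (347 CPM) lies close to the highest D6 library (309 CPM). The panels are a choice of genes, and over all tested genes the days did not overlap for 46.2%.

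Transcription factors of neural progenitors rose for the most part. Of 28 tested, 18 were higher and 4 lower (2 lower without D0 replicate 1 or without D6 replicate 2), with a median of 1.5. Hes5, a Notch target that keeps progenitors from becoming neurons, had 0, 2 and 0 reads at D0 and 88, 147 and 76 at D6. Id3, an inhibitor of bHLH factors, had 13, 15 and 12 reads at D0 and 104, 174 and 125 at D6 and rose by 3.65. Pou3f3, a POU factor of the neural tube, had no read in any D0 library and 35, 40 and 40 reads at D6, at least 16.9-fold higher. Dbx1, a homeodomain factor of the intermediate neural tube, rose from 6.62 ± 2.94 to 382 ± 21 CPM. Lower genes were Lhx2 (log2 fold change -2.57 ± 0.41), known from the forebrain, Nkx6-1 and Tead2.

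Of 25 tested proneural and neuronal factors, 22 were higher and none lower, with a median of 3.16 (2.50 with bounds). Neurog1, a neurogenin, had no read in any D0 library and 39, 49 and 43 reads at D6, at least 19-fold higher. Neurod4, which acts after the neurogenins, had no read in any D0 library and 15, 21 and 18 reads at D6. Insm1, a zinc finger factor of newborn neurons, had 8, 11 and 13 reads at D0 and 80, 106 and 94 at D6 and rose by 3.46. Nrep, a small protein of regenerating neurons, rose from 64.8 ± 23.4 to 1088 ± 95.8 CPM (4.06 ± 0.20 on the log2 scale). The other 3 were not called.

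Most genes of the neuronal cytoskeleton and axon rose. Of 37 tested, 30 were higher and none lower, with a median of 2.47, and the list went from 0.828% to 2.58% of reads. Tuba1a, the main α-tubulin of young neurons, had 1033, 1389 and 1179 reads at D0 and 1915, 3130 and 2282 at D6 and rose by 1.39. Tubb2b, a neuronal β-tubulin, had 112, 144 and 115 reads at D0 and 474, 840 and 549 at D6 and rose by 2.69. Tuba1b, an α-tubulin of dividing cells that is not in this list, went the other way by -0.71 ± 0.06. These tubulins are close in sequence, and reads of mapping quality 0 were counted where the aligner had placed them. Dcx, which binds microtubules in migrating neurons, had no read in any D0 library and 24, 64 and 44 reads at D6, at least 18.1-fold higher. Nefm, a neurofilament subunit, rose from 17.6 ± 2.08 to 415 ± 102 CPM. Stmn1, the stathmin of proliferating cells and neurons, was 2028 and 2206 CPM and was not called.

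Synaptic and secretory genes were higher in 19 of 20 tested, with a median of 3.05 (2.72 with bounds). Snap25, a SNARE of synaptic vesicle release, had no read in any D0 library and 11, 21 and 12 reads at D6, at least 6.17-fold higher. Nsg1, an endosomal protein of neurons, had 4, 5 and 5 reads at D0 and 59, 106 and 91 at D6. Sncb, β-synuclein, was the 1 lower gene, with 14, 21 and 11 reads at D0 and 5, 7 and 2 at D6 and a log2 fold change of -1.34 ± 0.44, and its call was lost without D0 replicate 2 or without D6 replicate 3.

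The regulators of splicing in neurons also moved. Of 20 neuronal RNA-binding proteins, 12 were higher and Ptbp1 was lower, with a median of 1.17. Ptbp1, which represses neuronal exons in other cells, fell by 1.04 on the log2 scale (573 ± 46.1 to 279 ± 24.6 CPM). Its neural paralogue Ptbp2 rose by 0.94 (99.7 ± 38.8 to 188 ± 17.1 CPM). Both calls were lost when reads needed a mapping quality of at least 10, where the count of higher genes was 4. Srrm4, the activator of neuronal microexons, had no read in any D0 library and 4, 13 and 9 reads at D6, at least 3.51-fold higher. Celf3, a brain-enriched CELF protein, had 0, 1 and 0 reads at D0 and 9, 21 and 11 at D6. Among 41 general splicing factors 15 were higher and 4 lower, with a median of 0.15, Hnrnph1 rising by 1.30 and Srsf9 falling by 1.30.

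Subunits of the BAF chromatin remodelling complex, which exchanges subunits between progenitors and neurons, were higher in 7 and lower in 2 of 20 tested (1 lower without D0 replicate 3, without D6 replicate 2 or without D6 replicate 3), with a median of 0.34. Actl6b, the neuronal actin-like subunit, had no read in any D0 library and 10, 14 and 12 reads at D6, at least 5.2-fold higher. Actl6a, its counterpart in progenitors, had 51, 65 and 66 reads at D0 and 39, 70 and 45 at D6 and was not called (0.12 ± 0.18). Ss18l1, the neuronal counterpart of Ss18, rose by 2.69, and Smarcd3 and Bcl7a rose by 2.18 and 3.29. Phf10, a subunit of progenitors, fell by 1.39.

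Radial glia and secreted neural factors were mixed, with 10 of 21 tested higher, 6 lower and a median of 0.27. Fabp7, the brain fatty acid binding protein of radial glia, had 1, 2 and 2 reads at D0 and 159, 271 and 189 at D6 and a log2 fold change of 6.96 ± 0.51. Its paralogue Fabp5 had 929, 1419 and 1139 reads at D0 and 316, 459 and 375 at D6 and fell by 1.23. Mdk, the growth factor midkine, rose by 1.13. Hopx and Slc1a3, which mark radial glia in the cortex, fell by 3.25 and 1.59.

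The matrix and epithelial lists went down. Of 22 matrix genes, 13 were lower (7 when a mapping quality of 10 was required) and 1 was higher, with a median of -0.94. Lamb1, a laminin chain, had 16, 37 and 28 reads at D0 and 0, 1 and 2 at D6. Fn1, fibronectin, was the 1 that rose, by 0.96, and 2 were higher without D6 replicate 3. Of 8 epithelial genes 5 were lower and 1 higher (Jup, lost without D0 replicate 2 or 3 or D6 replicate 3), with a median of -1.70. Anxa2 and its partner S100a10 fell by 2.62 and 1.49.

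Of the 4 metabolic lists, glycolysis had the lowest median. Of 29 tested genes, 23 were lower and 1 higher, with a median of -2.42, and the list went from 4.00% to 0.940% of all kept reads. Slc2a3, a glucose transporter, had 241, 320 and 278 reads at D0 and 2, 6 and 2 at D6 and fell by 5.90 on the log2 scale. Gapdh had 4351, 6994 and 5799 reads at D0 and 849, 1262 and 1039 at D6, from 16473 ± 1979 to 3989 ± 286 CPM. Pgk1 fell by 2.81 and Pkm by 2.00. Slc16a3, an exporter of lactate, had 155, 146 and 149 reads at D0 and 4, 9 and 0 at D6 and fell by 5.32. Of the 2 lactate dehydrogenase subunits, Ldha had 589, 806 and 621 reads at D0 and 38, 59 and 24 at D6 and fell by 3.74, while Ldhb had 96, 145 and 131 reads at D0 and 108, 155 and 125 at D6 and rose by 0.44, a call that was lost without D0 replicate 1.

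Oxidative phosphorylation showed no common direction. Of 75 nuclear-encoded subunits, 18 were higher (11 without D0 replicate 1) and 8 lower (2 without D6 replicate 2, 5 without D6 replicate 3), with a median of 0.10, close to that of all genes, and the list held 4.28% of reads at D0 and 4.87% at D6. Cox4i1, a subunit of cytochrome c oxidase, went from 1521 ± 164 to 1898 ± 225 CPM and rose by 0.28, with overlap between the days and a call lost without D0 replicate 1 or without D6 replicate 3. Atp5b, the catalytic subunit of ATP synthase, fell by 0.60.

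Cholesterol synthesis rose in 14 of 24 tested genes, with none lower (1 lower without D0 replicate 2 or without D6 replicate 3) and a median of 0.74 (0.244% to 0.401% of reads). Hmgcs1, HMG-CoA synthase, had 32, 47 and 36 reads at D0 and 66, 118 and 77 at D6 and rose by 1.54. Fdft1, squalene synthase, rose by 1.35. Of 25 genes of serine and one-carbon metabolism, 20 were lower (13 at a mapping quality of at least 10) and none higher, with a median of -1.56. Psat1, a serine synthesis enzyme, had 286, 394 and 347 reads at D0 and 62, 103 and 73 at D6 and fell by 1.73. Asns, asparagine synthetase, fell by 2.47 and Mthfd1, of the folate cycle, by 2.54.

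Cell cycle genes were lower in part. Of 50 DNA replication genes, 31 were lower (19 at a mapping quality of at least 10) and none higher, with a median of -0.68. Cdt1, which licenses origins, had 67, 103 and 91 reads at D0 and 13, 23 and 15 at D6 and fell by 1.95. Pcna, the polymerase clamp, went from 966 ± 84.7 to 745 ± 54.4 CPM and fell by 0.36. Of 56 mitosis genes, 29 were lower and 1 was higher, Cdc25b, a phosphatase that activates Cdk1, whose call was lost without D0 replicate 2, and the median was -0.58. Mki67, a marker of cycling cells, went from 127 ± 34.8 to 128 ± 23.6 CPM and was not called.

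Ribosome assembly was lower in 48 of 60 tested genes and higher in none, with a median of -1.01, and went from 1.80% to 0.824% of reads. Npm1, nucleophosmin, had 1784, 2596 and 2102 reads at D0 and 359, 538 and 391 at D6 and fell by 1.96. Ncl, nucleolin, fell by 1.42. Among 29 elongation factors and other genes whose transcripts begin with a terminal oligopyrimidine tract, 23 were lower and 1 higher (Eif4a2, lost without D0 replicate 1 or D6 replicate 1), with a median of -0.77. Eef1a1, the elongation factor that brings tRNA to the ribosome, fell from 23530.4 ± 929.9 to 13884 ± 573 CPM. Of 24 aminoacyl-tRNA synthetases and their cofactors 19 were lower and none higher, with a median of -0.96, for example Lars by -1.86 ± 0.29 and Gars by -1.22 ± 0.16.

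Among chaperones 20 of 34 were lower and 4 higher (2 without D0 replicate 3), with a median of -0.52. The mitochondrial pair Hspd1 and Hspe1 fell by 1.15 and 0.97, and Hspb1, a small heat shock protein, by 2.88. Hspa8, the constitutive Hsc70, rose by 0.19, a call lost without D0 replicate 3 or without D6 replicate 1. Of 36 proteasome genes 18 were lower and 1 higher (Psme2, lost without any single library but D0 replicate 2), with a median of -0.34. Psmb3 fell by 0.78 and Psmb4 was not called (-0.15 ± 0.11).

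Of 12 histone variants and HMG proteins, 6 were higher and 3 lower, with a median of 0.33. H3f3a and H3f3b, which encode the replication-independent histone H3.3, rose by 0.69 and 0.83. Hmga1 and Hmga2, architectural factors of stem cells, fell by 2.14 and 1.41. Hmgn2, a nucleosome-binding protein, rose by 1.36.

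Of 14 imprinted genes 4 were higher and 7 lower, with a median of -0.60. Nnat, neuronatin, had 16, 22 and 24 reads at D0 and 302, 367 and 341 at D6 and rose by 4.37. Snrpn fell by 1.5, Mest by 1.04, and Phlda2 had 11, 12 and 9 reads at D0 and 0 at D6. Of 16 genes of Nodal, FGF and Wnt signalling 4 were higher and 6 lower, with a median of 0.06. Etv5, an ETS factor downstream of FGF, had 17, 18 and 17 reads at D0 and no read in any D6 library. The secreted Wnt antagonists Sfrp1 and Sfrp2 moved apart, by -1.49 ± 0.23 and 1.46 ± 0.22.

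Markers of other cell types were scarce. No endoderm marker had enough reads for a test. Of astrocyte and oligodendrocyte markers, Aldoc, also a glycolytic enzyme, was lower, Mbp was not called, and Slc1a2 had 7, 6 and 6 reads at D6 and 0 at D0. Of mesoderm and muscle markers only Acta2 was tested, and it was lower, with 1, 0 and 0 reads at D6. The 1 tested marker of blood and vessel was not called. Of 4 tested neural crest markers 3 were higher, among them Ednrb (no read in any D0 library and 9, 11 and 8 reads at D6) and Ngfr (no read in any D0 library and 7, 15 and 12 reads at D6) (1 higher without D6 replicate 2 or without D6 replicate 3). Their part in the other results was not tested.

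Isoform shares were tested in a fit of their own. Of 2986 genes with at least 50 reads on each day, 1642 had 2 or more transcripts to test, and 59 (3.59%) passed an adjusted p of 0.05 for a shift in the shares of their 4380 transcripts (limma diffSplice with the Simes method). The count was 37 without D0 replicate 3, 35 without D6 replicate 1 and 31 without D6 replicate 3. Of these 59, 16 were also higher in level, 18 lower and 25 not called in level. In 58 at least 1 transcript had shares that did not overlap between days, as in 490 of all 1642 tested genes (29.8%). Both the most raised and the most lowered transcript were protein coding in 45 genes. Reads are assigned to a transcript by the whole alignment, and 12 genes involved a transcript with over 90% of reads at mapping quality 0, while in 29 both transcripts had under 20%. In 24 of the 59, either transcript had under 50% of its reads ending within 50 nt of its 3′ end, or a fixed internal start. A fixed internal start means over 50% of reads starting within 5 nt of 1 position past the first 100 bases. With the 90% rule added, 27 of the 59 genes were marked. Only 29 of the 59 could be tested at a mapping quality of at least 10, of which 22 were called. Of 17 that could be tested with reads starting in the first 100 bases, 12 were called.

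Of the 59 genes, Myl6 had the largest gain in the share of a transcript. Transcripts with the 45-nt exon, whose junctions are printed above, had 14 of 196, 33 of 299 and 29 of 232 reads at D0 and 145 of 207, 187 of 260 and 168 of 238 at D6. That was 10.2% ± 2.77 of its reads at D0 and 70.9% ± 0.965 at D6 (SD, n = 3), with no overlap (limma diffSplice adjusted p = 5.6e-21). None of the reads on the transcript that gained had a mapping quality of 0. The first border of the exon lies in the coding sequence and the second after it, so the frame ends within the exon and the 2 proteins differ at their C-terminus. The level of Myl6 was also higher at D6. Because reads start at the 3′ end and can stop before an exon, exon shares were also taken over the reads that crossed the border of the exon with at least 10 bases on both sides, a setting chosen after the data were seen. For Myl6 these were nearly all reads, with 7.18%, 11% and 12.5% at D0 and 70.0%, 71.8% and 70.6% at D6.

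The 54-nt exon of Clta was in 5.49%, 2.68% and 4.50% of reads at D0 and in 30.9%, 36.5% and 32.6% at D6, and in 0%, 0.810% and 0.546% against 30.9%, 36.7% and 31.1% of the crossing reads (limma diffSplice adjusted p = 3.79e-12). The level of Clta was not called. At a mapping quality of at least 10 it was higher, but that filter does not treat its transcripts alike. Reads of mapping quality 0 were 9.46% on the transcript that gained and 33.0%, 67.9% and 100% on the other tested ones. The filtered value therefore need not give the level of the gene. Neuronal clathrin light chains are known to carry extra coding exons. The M1 exon of Pkm was in 7, 18 and 7 reads at D0 and 28, 16 and 22 at D6, or 0.501%, 0.920% and 0.423% against 10.6%, 3.79% and 7.67% and, of the crossing reads, 1.20%, 1.42% and 0.694% against 13.7%, 7.80% and 11.7% (adjusted p = 1.21e-10 in limma diffSplice). The M1 share thus rose while the level of Pkm fell, and the M2 exon still had most reads at D6. The proximal last exon of Cdc42, the end of its known brain form, was in 6.06%, 7.81% and 4.08% of reads at D0 and in 28.6%, 20.9% and 22.9% at D6, and in 10.6%, 13.4% and 7.55% against 35.9%, 33.3% and 30.4% of the crossing reads (limma diffSplice adjusted p = 0.00011).

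**Figure D3:**
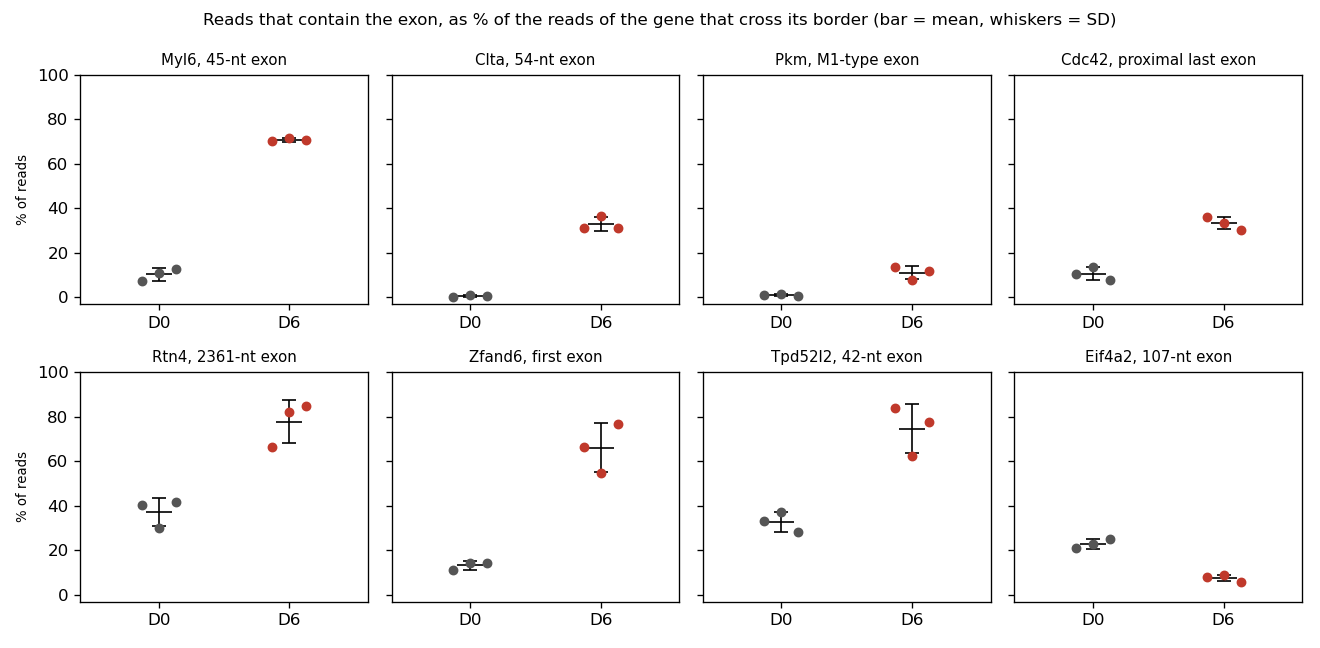
Percentage of reads that contain the named exon, of the reads of the gene that cross the border of the exon (vertical axes), in the 3 libraries of D0 (grey) and D6 (red); points are libraries, bars the means and whiskers the SD. The days do not overlap in any of the 8 panels, with Myl6 between 7.18% and 12.5% at D0 and between 70.0% and 71.8% at D6, and of these panels Eif4a2 alone goes down. The panels are a choice from genes called on the same reads. Of the exons not shown that had crossing reads, the days overlap for the 74-nt exon of Cnep1r1 and the 60-nt exon of Tpd52l2. Exons not shown that go down are the latter, the 27-nt exon of Nnat, the M2 exon of Pkm and the distal last exon of Cdc42.

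Other exons rose in share, given first over the reads on all transcripts whose span covers the exon. In Rtn4, a reticulon of the endoplasmic reticulum, the 2361-nt exon that is particular to the long Nogo-A form was in 41.6%, 42.7% and 41.9% of reads at D0 and in 57.9%, 71.5% and 70.9% at D6, of 38 to 130 reads a library, and in 40.5%, 30.2% and 41.7% against 66.7%, 82.1% and 84.9% of 27 to 78 crossing reads (limma diffSplice adjusted p = 0.00603). In Tpd52l2, a protein of membrane traffic, a 42-nt exon rose from 39.1%, 41.4% and 31.0% to 80%, 62.5% and 73.5%, of 20 to 70 reads a library, and from 33.3%, 37.3% and 28.3% to 84.2%, 62.5% and 77.5% of the crossing reads (limma diffSplice adjusted p = 0.00036). In Gnas, the stimulatory G protein α subunit, a 45-nt exon went from 62.1%, 73.5% and 74.3% to 88.7%, 78.2% and 84.0%, and from 89.1%, 89.7% and 91.6% to 99.1%, 97.8% and 98.0% of the crossing reads (limma diffSplice adjusted p = 0.0148), and its locus overlaps the gene model Gm20721. H13, the signal peptide peptidase, had no read with a 200-nt exon at D0 and 4, 6 and 2 reads at D6, of 11, 16 and 10 crossing reads (limma diffSplice adjusted p = 0.0201). The call of Rtn4 was lost without D0 replicate 3 or D6 replicate 3, that of Gnas without D0 replicate 1, D6 replicate 1 or D6 replicate 3 and with a replicate block, and that of H13 without any single library but D6 replicate 3. By limma on logit shares the calls of Rtn4 (adjusted p = 0.307), Gnas (0.385) and Tpd52l2 (0.0768) were lost.

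Transcripts annotated for nonsense-mediated decay changed in share in Cnep1r1 and Eif4a2, and in Wiz, described further on. In Cnep1r1, a subunit of a nuclear envelope phosphatase, the transcript that fell lacks a 74-nt exon and is annotated for decay (limma diffSplice adjusted p = 0.0284). Of the reads on transcripts without this exon only 7.84% crossed its place, and among 3 to 16 crossing reads a library the exon was in 100%, 87.5% and 77.8% at D0 and in 100%, 100% and 93.8% at D6, which overlap. The call of Cnep1r1 was lost without any single library but D6 replicate 2. In Eif4a2, a helicase of translation initiation, the main coding transcript rose from 33.2% ± 3.3 to 57.8% ± 3.7 of reads, while a 107-nt exon of a decay transcript went from 13.8%, 14.9% and 17.0% to 8.0%, 7.20% and 4.94%, and from 20.9%, 22.7% and 25% to 7.81%, 8.82% and 5.97% of the crossing reads (limma diffSplice adjusted p = 0.000639). The call of Eif4a2 was lost by limma on logit shares (adjusted p = 0.295). In Nnat a 27-nt exon went from 12.5%, 4.55% and 4.17% to 0.662%, 1.63% and 0.293%, on 4 reads in all at D0 (limma diffSplice adjusted p = 0.0382), a call lost by limma on logit shares, with a 10% minimum share and without D0 replicate 1 or 3 or D6 replicate 1 or 3, and Nnat overlaps the gene Blcap.

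First exons or starts changed in another group. In Pym1, which removes exon junction complexes from mRNA, a transcript with another first exon rose from 14.3%, 16.1% and 14.3% to 77.3%, 45% and 41.7% of reads, with 3, 5 and 4 reads at D0 and 17, 9 and 10 at D6 (limma diffSplice adjusted p = 0.00854). In Zfand6, a zinc finger protein, a transcript with another first exon rose from 3.03%, 6.82% and 6.90% to 55.6%, 32.4% and 64.7% (limma diffSplice adjusted p = 0.000257), and the transcript that fell overlaps a gene on the other strand. In Pigp, a subunit of GPI anchor synthesis, 1 of 2 coding transcripts went from 19% ± 4.4 to 71.8% ± 9.2 (limma diffSplice adjusted p = 3.92e-05), and the other one overlaps the start of Ttc3. In Tsc22d3, a glucocorticoid-induced leucine zipper protein, a processed transcript with another first exon and the same 3′ end had 19%, 16.7% and 45.8% of reads at D0 and 52.6%, 59.1% and 58.8% at D6 (limma diffSplice adjusted p = 0.0129). On it 62.1% of reads had a mapping quality of 0, as had 69.9% on the transcript that fell, and the call was lost by limma on logit shares and without D0 replicate 2 or D6 replicate 2. These shares count all reads on the transcripts, many of which stop before the first exon. Among reads that crossed out of that first exon or past its place, its share was 37.5%, 26.3% and 21.4% against 83.3%, 69.2% and 90% for Pym1 (8 to 19 reads a library), 11.1%, 14.3% and 14.3% against 66.7%, 55% and 76.9% for Zfand6 (9 to 21 reads) and 25%, 23.1% and 55.6% against 100%, 72.7% and 66.7% for Tsc22d3 (3 to 13 reads).

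Short transcripts with an earlier end rose in Tln1 and Cstf3. In Tln1, the integrin adaptor talin, a short processed transcript had 15%, 31.8% and 37.5% of reads at D0 and 60%, 83.8% and 63.2% at D6 (limma diffSplice adjusted p = 0.00162). In Cstf3, a subunit of the cleavage stimulation factor of 3′ end formation, the full-length transcript went from 70.9% ± 9.5 to 34.2% ± 4.5 and a transcript labelled as retained intron rose (limma diffSplice adjusted p = 0.0044). The call of Tln1 was lost without D6 replicate 2, that of Cstf3 without D6 replicate 3 and after thinning, and both by limma on logit shares.

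In Larp7 and Wiz the strand of the reads that changed could not be told. Larp7, a partner of the 7SK RNA, had 27, 35 and 40 reads at D0 on a transcript labelled as retained intron and 0 at D6, and 95.1% of these started within 5 nt of the same position. They lie at chr3:127546632-127546921, where no gene is annotated on the opposite strand. A second such transcript had 19, 25 and 27 reads at D0 and 0 at D6, at chr3:127544278-127546921. These reads stopped at the start of the exon after intron 8, and 0% came within 50 nt of the end of the transcript. Intron 8 holds the 5 microRNA genes of the Mir302 and Mir367 cluster on the opposite strand, chr3:127545228-127545807. The main transcript of Larp7 went from 57.7% ± 5.8 to 100% of reads (limma diffSplice adjusted p = 5e-08). Wiz, a zinc finger partner of histone methyltransferases, lost a transcript from 72.7% ± 3.0 to 16.4% ± 7.0 of reads (limma diffSplice adjusted p = 4.69e-10), and 89.4% of its reads started within 5 nt of 1 position and covered 227 nt that overlap the lincRNA Gm26858. The most raised transcript of Wiz, annotated for nonsense-mediated decay, went from 9.91%, 15.8% and 13.5% to 55.9%, 36% and 35% of reads, but 66.3% of its reads had a mapping quality of 0 and none reached the 279-nt exon that it alone holds. The table gives no alignment strand, so sense and antisense reads cannot be told apart.

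By structure, the most raised and the most lowered transcript had another last exon in 14 of 58 called genes (24.1%), against 7.08% of 1526 tested genes that were not called. The other classes were closer, with 36.2% against 30.5% for an internal exon, 60.3% against 62.6% for another 5′ end, 31.0% against 30.5% for another 3′ end in the same last exon, and 13.8% against 18% for a retained intron. Where 3′ ends lay over 50 nt apart, the raised transcript was the distal in 16 and the proximal in 16 genes, against 331 and 243 of the genes not called. These are annotated ends, and in 9 of the 16 distal and 3 of the 16 proximal genes under 50% of the reads of the raised transcript came within 50 nt of its end. Internal exons were in the raised transcript alone in 10 genes and in the lowered alone in 6, against 209 and 227 of the genes not called. These counts are a description of the called genes, which were chosen by the same reads. The 14 genes with another last exon include Larp7 and Wiz, where the strand of the reads that changed could not be told. They also include Cdc42, Dynlt1a and Glod4, where under 50% of the reads of the raised or lowered transcript came within 50 nt of its end. Reads start at the 3′ end and many stop early, so the classes may differ in how easily they are called. This was not tested.

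**Figure D4:**
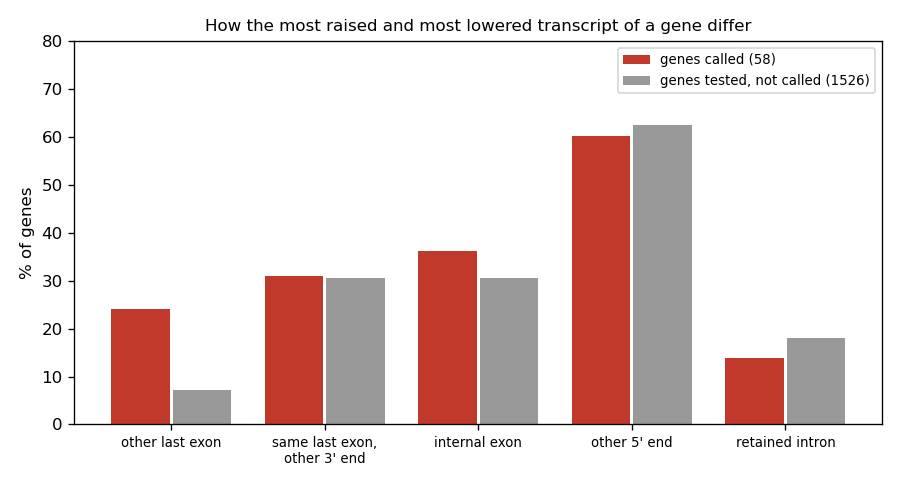
Percentage of genes (vertical axis, from 0) in which the most raised and most lowered transcript differ in each way (horizontal axis; a gene can be in several classes), for 58 genes called for an isoform shift (red) and 1526 tested genes not called (grey). Another last exon stands at 24.1% against 7.08% and an internal exon (neither first nor last) at 36.2% against 30.5%. The called genes were chosen by the same reads, and those with another last exon include Larp7 and Wiz, whose read strand is not known.

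A list of 40 genes with known isoform switches in neurons gave 26 with 50 reads on each day and 24 tested. Of these 24, 8 were called (Myl6, Clta, Pkm, Cdc42, Rtn4, Eif4a2, Gnas and Nnat), while 3.59% of all tested genes were. The list was chosen with earlier results of these data known, so this comparison is a description and not a test of the list. The part of read depth in these calls was not tested. Of the tested list genes not called, Mark3, a microtubule kinase, had 1 of 4 transcripts with shares that did not overlap between days. App, the amyloid precursor, had 1 such transcript of 5. At least 1 such transcript was also found in Tpm4, Hnrnpa2b1, Picalm, Fgfr1 and Tpm3, and in 29.8% of all tested genes. These list genes did not pass (limma diffSplice adjusted p from 0.14 for Tpm4 to 0.594 for Fgfr1, with 0.193 for Mark3 and 0.308 for App). All tested transcripts of the paralogues Ptbp1 (adjusted p = 0.749 in limma diffSplice) and Ptbp2 (0.687) overlapped in share.

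Poly(A) tails of single genes gave calls in some fits only. Median tails were 104 to 109 nt at D0 and 109 to 111 nt at D6. Of 1800 genes with at least 20 reads in each library, 0 (0.0%) passed in limma on the mean log2 tail, while 298 had an unadjusted p under 0.05 (190 longer and 108 shorter at D6). With at least 50 reads in each library, limma called 61 of 655 genes (9.31%), 20 longer (3.05%) and 41 shorter (6.26%), a balance opposite to that of the unadjusted p. With each library weighted by its reads of the gene, a setting added after the data were seen, limma called 142 (7.89%), 75 longer and 67 shorter.

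The place where reads ended was examined after the data were seen. For each gene, the share of reads of its most-read transcript that ended over 100 nt before the annotated end was compared for 405 genes with a share between 5% and 95%. By limma on logit shares weighted by reads, 29 (7.16%) passed an adjusted p of 0.05, 24 with fewer early ends at D6 (5.93%) and 5 with more (1.23%). The count was 4 without D6 replicate 3, 16 without D0 replicate 2 and 17 without D0 replicate 3. The median share over genes was 55%, 55.6% and 53.4% in the D0 libraries and 51.6%, 48.6% and 46.2% at D6. The libraries did not overlap with lower shares at D6 in 21.2% of genes and with higher shares in 6.67%.

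Eif4a1, the main helicase of translation initiation, had 46.9%, 48.3% and 51.9% early ends at D0 and 31.5%, 29.9% and 30.6% at D6. Hspa4, an Hsp110-type chaperone, went from 80.9% ± 3.11 to 59.5% ± 3.73 (SD, n = 3). Leprotl1, an endosomal membrane protein, went from 82.9% ± 3.52 to 48.0% ± 5.24, and Cnot6, a deadenylase of the CCR4-NOT complex, from 81.3% ± 4.58 to 48.7% ± 6.00. Tubb5, a β-tubulin, moved the other way, from 88.2% ± 0.141 to 93.6% ± 1.34, as did Jpt1, from 30.7% ± 2.26 to 46.5% ± 4.94. Without D6 replicate 3 fewer calls were left than there are genes named here, so not all of these genes kept their call. Reads at D6 were also longer in the alignment (median 882 to 1048 nt against 764 to 929 nt at D0), and their part in these shares was not tested.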

How the data were processed

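Native poly(A)-selected RNA was sequenced on nanopores in 12 libraries, 6 of which were used here. Base calls (Guppy), alignment to mouse transcripts of the mm10 build (minimap2 2.20), tail lengths (Nanopolish) and barcodes (Deeplexicon) are those of the authors. Every alignment is 1 line in the deposited per-read table, whose values are not normalized. The mapping quality that the authors deposited is a score of the aligner, and the barcode confidence the authors give is a fraction per read. The authors' second deposited table holds log2 fold changes and p-values from their DESeq2 fit and was not used. Of 6306434 lines, 69 were malformed and 289260 had no barcode. Reads of Rpl and Rps genes left out numbered 730029 in the 6 libraries.

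Reads were tallied per gene, scaled by the trimmed mean of ratios (30% of ratios and 5% of levels trimmed) and fitted by limma-voom (limma 3.58.1, R 4.3.3, pseudocount 0.5) to all 12 libraries, for genes with at least 30 reads. Isoform shares were tested by limma diffSplice on transcripts with at least 10 reads and 5% of the reads of the gene, and tails by limma on the mean log2 length. The threshold was a Benjamini-Hochberg adjusted p of 0.05. Exons were read from the GENCODE vM21 annotation of GRCm38, where 4269 of 4380 tested transcripts were found. Tables were made with Python 3.11.15 and pandas 2.3.3. Tests were tried on simulated data.

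The members and gene lists were chosen with earlier results of these data known. Named genes were the 4 members of each list with the most reads, the 2 called members with the largest fold change, the 10 largest rises and falls without overlap between days, the 12 largest share changes and the isoform list. Not every gene of that rule is printed, and some are not reported here. Markers were named as a set, and the following were named after their values were seen: Bmi1, Cdc25b, Cnot6, Cyp26a1, Dbx1, Ddit3, Dhrs3, Eed, Eif4a1, Ezh2, Fdft1, Hnrnph1, Hopx, Hoxc4, Hoxd1, Hspa4, Jpt1, Jun, Jup, Ldha, Ldhb, Leprotl1, Lhx2, Meis2, Mki67, Nkx6-1, Phf10, Psme2, Rara, Rarb, Rxra, Rxrb, Sall4, Slc1a3, Smarcd3, Sncb, Ss18l1, Suz12, Tubb5 and Zfp57. The alternatives were other scaling, filters, mapping quality, thinning, pseudocount, a replicate block and leaving out each library. Same-numbered libraries did not deviate together, so numbers were not used as pairs. Counting intervals cover counting error only.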

Additional observations from a re-analysis of the deposited data

How the results depend on the processing

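Of the counts of genes changed in level (3427), those under other scaling, filters, pseudocount, 6 libraries, a replicate block and with ribosomal protein genes left in were within 1.5 times, and leaving out each library in turn gave 2727 to 3120. The count was 2121 with a mapping quality of at least 10 and 1073 with libraries thinned to the smallest, in which 6631 and 5892 genes were tested. The count of genes with an isoform shift (59) was 32 of 339 tested at a mapping quality of at least 10 (22 of them among the 59), 19 of 212 with reads starting in the first 100 bases (12), 24 by limma on logit shares (21) and 36 after thinning, and leaving out each library gave 31 to 67. Myl6, Clta, Pkm, Cdc42, Pym1, Zfand6, Pigp, Wiz and Larp7 kept their calls under every alternative that tested them. For tails, where the count was 0, limma called 2 on the median tail (2 shorter), 61 of 655 with at least 50 reads per library (20 longer, 41 shorter) and 142 with libraries weighted by reads, and 0 with each library left out. The cause of these changes was not tested beyond the lower number of genes tested.

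The replicate numbers do not pair the libraries, since the deviations of same-numbered libraries correlated by -0.19, 0.05 and 0.07 over 1157 genes. With the replicate number as a block, 3441 genes were called in level, 44 in isoform shares and 0 in tails.

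As to depth, after thinning 36 of 1027 tested genes (3.51%) were called in isoform shares, against 3.59% without it. Thinning also cut the gene lists, for example to 6 lower pluripotency genes, 25 lower ribosome assembly genes and 11 higher proneural genes. Of the genes named for their level, 4 changed sign. Mki67, not called, was -0.00369 at a mapping quality of at least 10 and ranged from -0.18 to 0.24 with each library left out. Psme2 was -0.0492 and Rxrb -0.45 after thinning. The log2 fold change of Clta was 4.05 (adjusted p = 2.34e-08, limma-voom) at a mapping quality of at least 10 and -0.23 over all reads. That filter removes reads that fit several Clta transcripts equally well, so 4.05 need not give the level of the gene.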

Other observations

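Genes of stress and cell death were mixed. Of 11 tested, 5 were lower and 1 higher, with a median log2 fold change of -0.29 against 0.03 over all genes. Under 30 reads in all at D6 were held by 6 of the 11, which in part fixes the direction of their calls. Atf4, the factor that drives amino acid response genes, had 187, 306 and 237 reads at D0 and 56, 110 and 63 at D6 and fell by 1.30 on the log2 scale. Its targets Trib3 and Chac1 had 34, 55 and 54 and 54, 74 and 67 reads at D0, and 1, 0 and 3 and 1 read in each library at D6. Jun, an immediate early factor, rose by 2.66. The days did not overlap for any of these 4 genes. Bax and Ddit3 were not called.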
